A study of Mus musculus with 6 samples.

Results

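The Zfp900-series zinc finger genes were examined in metaphase II (MII) oocytes of reproductively old mice. They were chosen by name alone, as the Ensembl genes called Zfp9 followed by 2 digits, and 67 of the 60193 listed genes, or of the 53700 listed Ensembl genes, had such a name. The 6 samples were pools of MII oocytes from female mice of the outbred ICR stock aged 42 to 45 weeks, with no genotype given beyond the strain and with 3 biological replicates in each of 2 groups. IVM oocytes were taken from the ovary at the germinal vesicle stage after a gonadotropin injection, stripped of their cumulus cells and matured in culture in M16 medium. IVO oocytes matured inside the animal after gonadotropin and hCG injections and were collected as MII oocytes. All donors were old, so the comparison is between ways of maturation and holds no young group. Each sample pooled several mice, so that differences between single animals were not measured, and the p-values below measure the spread between these pools.

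C2H2 zinc finger proteins bind DNA through arrays of fingers. In the KRAB zinc finger proteins, the KRAB domain recruits the corepressor Trim28, which brings in the histone methyltransferase Setdb1, heterochromatin proteins and deacetylases, and the bound site is silenced. Many of these proteins repress transposable elements, and Zfp57 and Zfp445 protect the methylation of imprinted regions. Rodents carry large clusters of recently duplicated KRAB zinc finger genes, among them those on the distal parts of chromosomes 2 and 4. Transcription is largely silent in fully grown oocytes, so most mRNA of an MII oocyte was made earlier and stored.

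The values are FPKM, which divide the fragments on a gene by transcript length and library size and can therefore be compared between genes. Low values placed the depth at 16650000 to 19300000 fragments for IVM and 17950000 to 18250000 for IVO, and 3 fragments on a transcript of 2500 bases came to 0.0677 to 0.079 FPKM. The inferred fragment length was 204 to 220 bases in IVM and 252 to 264 bases in IVO, so it differed with the group, and its part in the results was not tested. The 12 oocyte markers were all expressed, with summed levels of 26469 to 33267 FPKM in IVM and 25081 to 29470 FPKM in IVO. A DEG has |log2FC| of at least 1 and a limma adjusted p under 0.05. Of the 12 markers, 4 (Zp1, Zp2, Zp3 and Nlrp5) were DEGs lower in IVO, beside 17.9% of all tested genes. Of 14 cumulus and granulosa cell markers, 11 had a mean under 1 FPKM, 7 of these a mean under 0.1 FPKM, and Amh was listed at 0 in all 6 libraries. The summed cumulus markers, mostly Cyp19a1 and Fshr, lay at 24.5 to 35.4 FPKM in IVM and 33.5 to 37.5 FPKM in IVO. At lower levels, the cumulus expansion genes Has2 (0.04 to 0.14 FPKM in IVM and 0.17 to 0.37 in IVO), Ptx3 (0 to 0.03 and 0.07 to 0.17) and Tnfaip6 (0 to 0.14 and 0.34 to 0.49) had their 3 IVO values above their 3 IVM values, and were not tested because their means were under 1 FPKM. Inhbb went the other way (0.03 to 0.04 FPKM in IVM and 0 in IVO). The groups of Ptgs2 overlapped (0.04 to 0.19 and 0.16 to 0.5). Of all tested genes, 9.62% were higher in IVO without overlap. The lowest IVM values of Has2, Ptx3 and Tnfaip6, and every value of Inhbb, lay below the level given above for 3 fragments. The part of these markers in the results below was not tested.

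Most of the Zfp900 series was present in the MII oocytes. Of the 67 genes, 49 had at least 1 FPKM in all 6 samples, and 51 to 55 reached that level in any single library. A mean of at least 1 FPKM over the 6 samples was reached by 55 genes, which were tested. Of these, 5 had a mean over 100 FPKM, 29 a mean of 10 to 100 and 21 a mean of 1 to 10. The median of the means was 19.4 FPKM, beside 8.93 FPKM for all 18818 genes tested. The authors' Pfam annotation gave a KRAB domain to 62 of the 67 genes and C2H2 fingers to 63. The 5 without KRAB were Zfp956, Zfp957, Zfp974 and the annotated pseudogenes Zfp939 and Zfp996.

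The other 12 genes were below the level tested. Zfp935 and Zfp996 were listed at 0 in all 6 libraries. Zfp986 came closest to the limit, with 0.36, 1.59 and 1.06 FPKM in IVM and 0.88, 0.79 and 1.07 FPKM in IVO, and its groups overlapped. The highest value of the other 9 (Zfp941, Zfp945, Zfp953, Zfp954, Zfp971, Zfp972, Zfp974, Zfp976 and Zfp995) was 0.99 FPKM. These 12 genes lie on 6 chromosomes.

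**Figure D1:**
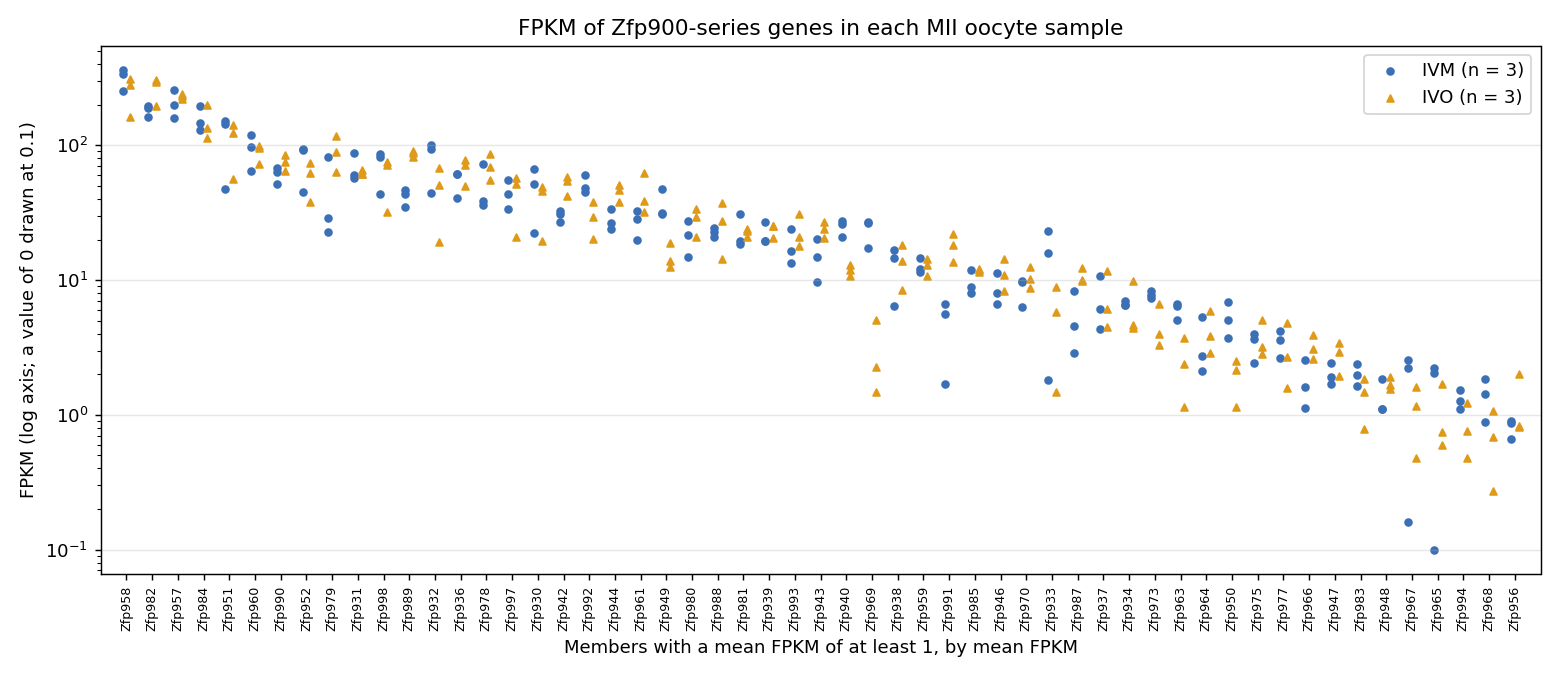
FPKM (log axis) of the 55 tested Zfp900-series genes in each of the 3 IVM samples (circles) and 3 IVO samples (triangles), ordered by mean. Means run from 284 FPKM for Zfp958 to 1.01 FPKM for Zfp956, and the groups overlap for 41 of the 55 genes.

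Zfp982, the second most abundant member, had 190, 161 and 196 FPKM in IVM and 294, 196.03 and 307 FPKM in IVO. IVO replicate 2 lay just below the highest IVM sample, IVM replicate 3 at 196.4 FPKM, so the groups overlapped, although the other two IVO samples were above every IVM sample. The means were 183 ± 18.8 FPKM in IVM and 266 ± 60.8 FPKM in IVO (SD, n = 3). The log2FC, IVO minus IVM on the log2(FPKM + 1) scale, was 0.52 (SE 0.22, 95% interval 0.00 to 1.03) and did not pass the test (limma adjusted p = 0.134). With median-ratio scaling of the libraries it was 0.84 with a limma adjusted p of 0.037, still under the fold threshold, and with quantile normalization it was 1.02 with a limma adjusted p of 0.0191, a DEG. The gene lies at chr4:147545583-147601280 on the plus strand of GRCm39. No 150-base window of its canonical transcript was found in a transcript of another gene. It has 9 annotated transcripts, and the others were not checked. RefSeq lists 3 promoter windows for it, and the one at chr4:147576624-147576923 is printed because its middle recurs in other genes of the cluster. It runs from 250 bases before to 50 after the transcription start, with a shared 9-base motif in capitals:
Zfp982: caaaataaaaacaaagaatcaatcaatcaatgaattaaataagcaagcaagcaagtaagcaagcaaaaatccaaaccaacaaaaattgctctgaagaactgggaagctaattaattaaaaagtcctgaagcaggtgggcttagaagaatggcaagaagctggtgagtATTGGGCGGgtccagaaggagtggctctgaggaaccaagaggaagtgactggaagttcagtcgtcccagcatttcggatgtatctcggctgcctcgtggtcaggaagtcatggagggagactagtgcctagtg

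The 10 most abundant members held no DEG. Zfp958, on chromosome 8, had 337, 363 and 254 FPKM in IVM and 310.4, 278 and 163 FPKM in IVO, with overlapping groups and a log2FC of -0.38 (SE 0.28, limma adjusted p = 0.375). Zfp957, the abundant member without an annotated KRAB domain, had 199.99, 158 and 257 FPKM in IVM and 219.5, 242 and 230.5 FPKM in IVO, with a log2FC of 0.20 (SE 0.21, limma adjusted p = 0.542). The IVO samples were close together and lay inside the IVM range. Zfp984, in the chromosome 4 cluster, had 147, 196 and 129 FPKM in IVM and 198, 113 and 134 FPKM in IVO. Its log2FC was -0.10 (limma adjusted p = 0.816), and the highest and lowest values both came from IVO. Zfp951 on chromosome 5 spread widely inside both groups, with 47.1, 153 and 145 FPKM in IVM and 142, 123 and 56.0 FPKM in IVO. The lowest sample of each group was about as low as the other, and the log2FC was -0.03 (SE 0.53, limma adjusted p = 0.975).

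Zfp960 on chromosome 17 had 65.0, 119 and 96.5 FPKM in IVM and 95.4, 99.4 and 72.1 FPKM in IVO (log2FC -0.04, limma adjusted p = 0.93), and 54.0% of its 150-base windows also occur in Zfp97, so reads on it may have been split. Zfp990, the first member of the chromosome 4 cluster, had 51.7, 68.0 and 63.3 FPKM in IVM and 75.2, 65.0 and 85.1 FPKM in IVO, with a log2FC of 0.30 (limma adjusted p = 0.323). Its highest pair of values was in IVO, and IVO replicate 2 lay inside the IVM range. Zfp952 on chromosome 17 had 45.2, 91.7 and 93.1 FPKM in IVM and 62.8, 73.3 and 38.3 FPKM in IVO (log2FC -0.37, limma adjusted p = 0.505). Its lowest sample was again IVM replicate 1 in one group and IVO replicate 3 in the other. Zfp931 on chromosome 2 had 57.6, 87.0 and 60.5 FPKM in IVM and 66.1, 61.1 and 61.5 FPKM in IVO (log2FC -0.10, limma adjusted p = 0.781). Its IVO samples were nearly equal.

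Zfp979, also in the chromosome 4 cluster, had 81.8, 28.8 and 22.9 FPKM in IVM and 117, 89.8 and 63.0 FPKM in IVO. IVM replicate 1 lay far above the other IVM samples and above IVO replicate 3, so the groups overlapped. The log2FC of 1.18 (SE 0.48) did not pass the test (limma adjusted p = 0.121). Without IVM replicate 1 it was 1.73 with a limma adjusted p of 0.0249. With all 6 libraries kept, the gene was also a DEG with quantile normalization (1.71, limma adjusted p = 0.0413) and with the replicate number as a block (1.18, limma adjusted p = 0.0469). The replicate numbers, however, do not pair the samples.

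DEGs numbered 4 in the lower and 2 in the higher direction among the 55 tested members, where a DEG has |log2FC| of at least 1 and a limma adjusted p under 0.05. The lower members made up 7.27% of those tested, beside 17.9% of all tested genes. The higher members made up 3.64%, beside 0.606% of all tested genes. All members are Ensembl genes, while the tested genes also include loci that the authors assembled. Of the 13154 tested Ensembl genes, 14.6% were DEGs lower and 0.623% higher in IVO. Their median log2FC was -0.18, and 0.08 with median-ratio scaling. At an unadjusted p under 0.05, 7 members were lower and 8 higher, beside 31.4% and 5.56% of all tested genes. The median log2FC of the members was 0.05 (quartiles -0.32 and 0.32), beside -0.30 (quartiles -0.99 and 0.15) over all tested genes, and 29 of the 55 (52.7%) had a positive log2FC beside 34.0% of all tested genes. Median-ratio scaling moved the median of all tested genes to -0.04 and that of the members to 0.33, and 1 member was then lower and 4 were higher, beside 11.2% and 2.06% of all tested genes with that scaling. Because each sample is a pool, less RNA of a gene per oocyte and fewer oocytes carrying it cannot be told apart.

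The values of the groups did not overlap for 14 members, 7 lower in IVO (12.7%, beside 32.6% of all tested genes) and 7 higher (12.7%, beside 9.62%). The other 41 overlapped. Beside the 6 DEGs, the limma test passed for Zfp940 and Zfp942 below the fold threshold. Zfp940 fell from 24.8 ± 3.46 to 11.9 ± 1.07 FPKM (SD, n = 3, log2FC -0.99, adjusted p = 0.013), and Zfp942 rose from 30.2 ± 2.85 to 51.4 ± 8.67 FPKM (SD, n = 3, log2FC 0.74, adjusted p = 0.0376).

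**Figure D2:**
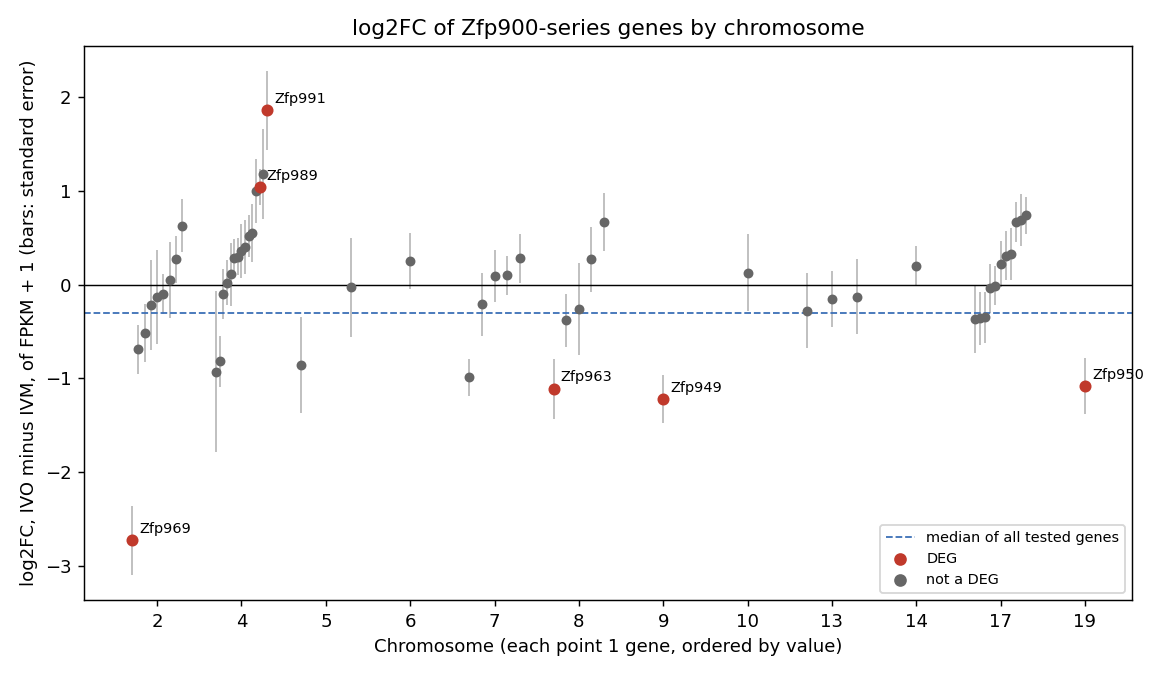
Log2FC (IVO minus IVM, of FPKM + 1) of the 55 tested genes by chromosome, with standard errors. Each point is 1 gene, larger red points are the 6 DEGs, and the dashed line is the median of all tested genes at -0.30. On chromosome 4, 12 of 15 points lie above 0, beside 34.0% of all tested genes. Zfp969 on chromosome 2 is the lowest point at -2.73.

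Zfp969 showed the most negative log2FC of the members. It had 26.4, 27.2 and 17.3 FPKM in IVM and 5.08, 2.26 and 1.47 FPKM in IVO, so every IVM sample was above every IVO sample. The mean fell from 23.6 ± 5.49 to 2.94 ± 1.9 FPKM (SD, n = 3), with a log2FC of -2.73 (SE 0.37, limma adjusted p = 0.00375). It stayed a DEG when each sample was left out in turn, with a log2FC of -3.09 to -2.44, and under every other setting tried. The gene lies at chr2:175479717-175495472 on the minus strand of GRCm39.

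All 150-base windows of Zfp969 (100%) occur in transcripts of Zfp968, 44.2% in Zfp966 and 33.7% in Zfp967, so its level depends on how RSEM split the reads. Zfp968 had 1.84, 1.42 and 0.88 FPKM in IVM and 0.27, 0.69 and 1.06 FPKM in IVO, a log2FC of -0.52 (limma adjusted p = 0.274). Zfp966 had 1.12, 2.54 and 1.62 FPKM in IVM and 3.1, 2.61 and 3.88 FPKM in IVO, all above the IVM values, and its log2FC was 0.63 (limma adjusted p = 0.151). Zfp967 had 2.55, 2.21 and 0.16 FPKM in IVM and 1.6, 1.16 and 0.48 FPKM in IVO, with a log2FC of -0.22 (limma adjusted p = 0.778). None of these near copies reached the level of Zfp969 in IVM. The FPKM summed over Zfp966 to Zfp969 was 32, 33.3 and 20 in IVM and 10.1, 6.72 and 6.89 in IVO. It still depends on the split, since the listed length is 2939 bases for Zfp966 and 1458 for Zfp969. Zfp1009, outside the sum, holds 17.2% of the windows of Zfp969 and 17.1% of those of Zfp968. The groups of the sum did not overlap, and the means were 28.4 ± 7.35 and 7.89 ± 1.88 FPKM (SD, n = 3).

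Zfp949, at chr9:88430073-88453709 on the plus strand, shared no window with another gene. It had 31.0, 47.7 and 31.2 FPKM in IVM and 14, 12.4 and 18.7 FPKM in IVO, without overlap, and fell with a log2FC of -1.22 (SE 0.26, limma adjusted p = 0.0154). It was no longer a DEG without IVO replicate 2 (-1.10, limma adjusted p = 0.0543) or with median-ratio scaling (-0.91, limma adjusted p = 0.0611). Its RefSeq promoter window, at chr9:88429823-88430122, is printed as that of the DEG with the most negative log2FC that has an entry, and holds neither of the motifs that recur on chromosomes 2 and 4, so it has no capitals:
Zfp949: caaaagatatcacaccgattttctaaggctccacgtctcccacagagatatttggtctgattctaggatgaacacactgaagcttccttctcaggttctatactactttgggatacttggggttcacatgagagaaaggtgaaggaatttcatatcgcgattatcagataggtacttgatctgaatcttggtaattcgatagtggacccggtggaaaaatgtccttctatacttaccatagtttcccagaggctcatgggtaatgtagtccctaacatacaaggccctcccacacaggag

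Zfp963 and Zfp950 were lower in IVO at low levels. Zfp963 on chromosome 8 had 6.65, 5.02 and 6.4 FPKM in IVM and 3.73, 2.37 and 1.14 FPKM in IVO (log2FC -1.11, SE 0.32, limma adjusted p = 0.047), and 33.6% of its windows also occur in Gm20422. Zfp950 on chromosome 19 had 5.04, 3.7 and 6.88 FPKM in IVM and 2.16, 2.52 and 1.15 FPKM in IVO (log2FC -1.08, SE 0.30, limma adjusted p = 0.041), with no shared window. The groups did not overlap for either gene. When samples were left out in turn, the call held in 1 of 6 fits for each gene, for Zfp963 without IVO replicate 1 and for Zfp950 without IVM replicate 2, and neither was a DEG with median-ratio scaling (-0.85 and -0.83).

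Both DEGs higher in IVO lie in the chromosome 4 cluster. Zfp991, at chr4:147209439-147268015 on the plus strand, had 6.69, 5.57 and 1.69 FPKM in IVM and 18.2, 22.1 and 13.7 FPKM in IVO. Every IVO sample was above every IVM sample, and the mean rose from 4.65 ± 2.62 to 18 ± 4.21 FPKM (SD, n = 3, log2FC 1.86, SE 0.42, limma adjusted p = 0.0196). Its limma adjusted p was 0.0533 without IVO replicate 1 and 0.0619 without IVO replicate 2, and 37.5% of its windows also occur in other genes, mostly Gm13236, Znf41-ps and Zfp992. Zfp992, in turn, had 45.2, 60.1 and 48.0 FPKM in IVM and 38.1, 20.3 and 29.4 FPKM in IVO, lower in IVO without overlap, with a log2FC of -0.82 (limma adjusted p = 0.0646). Zfp989, at chr4:147056433-147075212 on the plus strand, had 46.8, 43.9 and 35.0 FPKM in IVM and 88.3, 81.5 and 90.1 FPKM in IVO. Its samples were close together inside each group, and the mean rose from 41.9 ± 6.15 to 86.6 ± 4.54 FPKM (SD, n = 3, log2FC 1.04, SE 0.19, limma adjusted p = 0.00897). Without IVM replicate 3 its log2FC was 0.92, under the fold threshold, and 26.7% of its windows occur in other genes, mostly Zfp987.

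Taken by chromosome, the cluster on chromosome 4 (chr4:145237287-147932882) held 16 members, of which 15 were tested. There were 2 DEGs higher in IVO and 0 lower by limma, with 5 higher and 1 lower at an unadjusted p under 0.05. Of all tested genes, 0.606% were DEGs higher and 17.9% lower, and 5.56% were higher and 31.4% lower at that unadjusted p. The median log2FC of the cluster was 0.36 and 12 of 15 genes were positive, beside 34.0% of all tested genes. With median-ratio scaling the median was 0.67, 13 were positive and Zfp987 was a further DEG higher in IVO. Removing each library's trend with gene length left a median of 0.23 with 10 positive, and then Zfp992 was a DEG lower in IVO, Zfp991 was the DEG higher in IVO, and Zfp989 was at 0.86, under the fold threshold. Zfp987 had 8.36, 4.57 and 2.86 FPKM in IVM and 12.4, 9.87 and 10.04 FPKM in IVO, higher in IVO without overlap, with a log2FC of 1.0 (SE 0.34, limma adjusted p = 0.0731) as deposited. The other 14 tested genes in this span, among them Rex2 and Zfp600, had a median log2FC of 0.25 with 11 positive, and limma called 0 DEGs among them (4 higher and 0 lower at an unadjusted p under 0.05). Rex2 had a log2FC of 0.03 and Zfp600 of 0.21. The summed FPKM of the 16 members was 753, 712 and 653 in IVM and 1074, 745 and 917 in IVO. IVO replicate 2 lay below IVM replicate 1, so the groups of the sum overlapped.

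Promoter windows of part of the cluster shared a stretch near the transcription start. RefSeq gave 63 windows for 55 of the 67 members, and Zfp930, Zfp934, Zfp960, Zfp969, Zfp978, Zfp986, Zfp989, Zfp990, Zfp991, Zfp992, Zfp997 and Zfp998 had no entry. The motif ATTGGGCGG, searched on both strands (CCGCCCAAT), was found in 7 of the 10 chromosome 4 members with an entry and in 2 of 35 members off chromosomes 2 and 4 (Zfp947 and Zfp994), beside 0.256% of all 32851 windows. Its letters were chosen after the members' windows had been compared, and it joins an inverted CCAAT box to the core of a GC box, so that it overlaps both. On either strand, the former box was in 37.4% of all windows, and the latter core, spelled GGGCGG, was in 35.7%. An 80-base stretch around the motif aligned in 8 chromosome 4 members, and the other 7 differed from Zfp982 at 3 to 21 bases. Shown as near and distant examples, and chosen after the values were seen, are Zfp979 (chr4:147726989-147727068, minus strand, with the same sequence at 1 other place on chromosome 4), Zfp984 (chr4:147894282-147894361, minus strand) and Zfp987 (chr4:146033769-146033848, plus strand), with the motif in capitals where it is complete:
Zfp979: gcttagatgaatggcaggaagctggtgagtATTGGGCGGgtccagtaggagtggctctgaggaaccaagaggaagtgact
Zfp984: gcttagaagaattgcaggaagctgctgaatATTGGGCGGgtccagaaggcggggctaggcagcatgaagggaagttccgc
Zfp987: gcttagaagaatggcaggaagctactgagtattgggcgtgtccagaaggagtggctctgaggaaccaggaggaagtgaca
Zfp979 and Zfp987, with log2FC of 1.18 and 1.0, differ from Zfp982 at 3 and 6 of the 80 bases. Zfp984, with a log2FC of -0.10, differs at 21. Of the members not printed, Zfp985 differs at 4 bases with a log2FC of 0.28, and Zfp980 at 5 with 0.40. Zfp988 differs at 7 with 0.11, and Zfp981 at 12 with 0.02. The log2FC of Zfp982 itself was 0.52. Whether likeness of the stretch goes with the log2FC was not tested. The stretches are alike in sequence, so members that share them are not independent observations of the motif. The likeness covers the stretch and not whole genes. Zfp982 and Zfp985 shared 0.0% of their 150-base transcript windows with other genes, and Zfp979 shared 9.4%. The other place of the Zfp979 sequence, chr4:147445662-147445741 on the plus strand, lies just before Zfp978, which had no entry.

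Chromosome 2 held 11 members, 10 of them at chr2:175214229-177720294 and Zfp937 far from these. Of 9 tested, 1 (Zfp969) was a DEG lower in IVO and 0 were higher by limma, with 2 lower and 0 higher at an unadjusted p under 0.05. Of all tested genes, 17.9% were DEGs lower and 0.606% higher, and 31.4% were lower and 5.56% higher at that unadjusted p. The median log2FC was -0.13, with 3 of 9 positive, beside 34.0% of all tested genes. With median-ratio scaling it was 0.01 with 5 of 9 positive. Zfp973 had 7.8, 7.41 and 8.25 FPKM in IVM and 6.65, 3.28 and 3.99 FPKM in IVO, lower in IVO without overlap, with a log2FC of -0.69 (limma adjusted p = 0.104). All windows of Zfp965 occur in Zfp973, and 74.7% of those of Zfp973 occur in Zfp965. Zfp965 itself had 2.24, 2.05 and 0 FPKM in IVM and 0.75, 1.7 and 0.6 FPKM in IVO (log2FC -0.13, limma adjusted p = 0.882).

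In the same span, 26 other genes were tested, 20 of them annotated as KRAB zinc finger genes. Their median log2FC was -0.25. Limma called 2 lower and 0 higher in IVO, beside 17.9% and 0.606% of all tested genes (also 2 and 0 at an unadjusted p under 0.05, beside 31.4% and 5.56%). These were Zfp968-ps, with 10.5, 8.18 and 14.7 FPKM in IVM and 4.43, 3.17 and 1.31 FPKM in IVO (log2FC -1.66, adjusted p = 0.0188), and Gm14406, with 10.8, 11.4 and 8.34 FPKM in IVM and 2.65, 2.09 and 4.95 FPKM in IVO (log2FC -1.45, adjusted p = 0.0142). The summed FPKM of the 11 members on chromosome 2 was 115, 152 and 101 in IVM and 99.2, 92.4 and 94.1 in IVO. The groups did not overlap, but the nearest sums were 101 and 99.2. These sums were not rescaled, and all listed genes summed to 1826738 to 2111776 FPKM in IVM and 1560813 to 1643682 in IVO. Zfp969, with means of 23.6 and 2.94 FPKM, is part of the sum. Of the 11 members, 9 shared at least 10% of their windows with other genes.

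**Figure D3:**
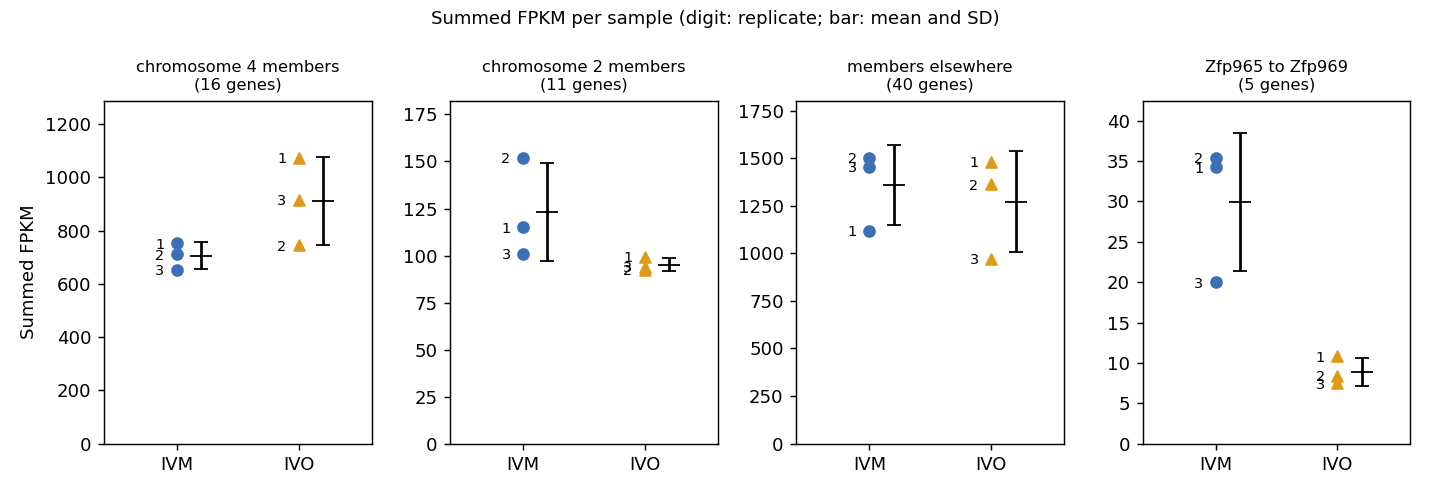
Summed FPKM per sample for the members on chromosome 4, on chromosome 2, elsewhere, and for Zfp965 to Zfp969, with the replicate number beside each point and bars for the mean and SD. For Zfp965 to Zfp969 the 3 IVM samples lie between 20 and 35.4 FPKM and the 3 IVO samples between 7.49 and 10.8 FPKM.

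The promoter windows of the chromosome 2 members carried another motif. Its letters were cut from the window of Zfp968, itself a chromosome 2 member with near copies there. Its share among these members was therefore partly set in advance and tests nothing. AGCCAATCAG, a CCAAT box with flanking bases searched on both strands (CTGATTGGCT), was found in 9 of 10 chromosome 2 members with an entry, in 0 of 10 on chromosome 4 and in 4 of 35 elsewhere (Zfp935, Zfp938, Zfp963 and Zfp964), beside 1.45% of all windows. The GC box core was in 0 of 10 members with an entry on chromosome 2 and 7 of 10 on chromosome 4. TATAAA was in 0 of the 55 members with an entry, beside 13.6% of all windows. An 80-base stretch was identical in 6 of the 10 members, and Zfp931 differed from it at 4 bases. It is printed for Zfp968 (chr2:175214161-175214240, plus strand, whose whole window occurs at 5 places on chromosome 2) and for Zfp931 (chr2:177720277-177720356, minus strand), the most abundant member there, with CCAAT in capitals. Both were chosen after the values were seen:
Zfp968: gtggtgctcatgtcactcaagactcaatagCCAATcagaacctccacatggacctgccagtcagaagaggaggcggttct
Zfp931: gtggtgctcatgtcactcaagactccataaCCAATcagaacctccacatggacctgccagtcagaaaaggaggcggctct
No level is compared between these genes, since the value of Zfp968 depends on how reads were split with its near copies. The 5 places of its window put the stretch also just before Zfp969 (chr2:175495506-175495585, minus strand), which had no entry. Zfp966 and Zfp967 have it just before them too.

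Chromosome 17 held 13 members, 11 of them tested. By limma 0 were DEGs, with 3 higher and 0 lower at an unadjusted p under 0.05, beside 5.56% and 31.4% of all tested genes. The median log2FC was 0.22. The 3 genes Zfp942, Zfp943 and Zfp944 were higher in IVO without overlap, beside 9.62% of all tested genes. Zfp943 had 9.75, 14.9 and 20.2 FPKM in IVM and 27.2, 23.9 and 20.5 FPKM in IVO (log2FC 0.69, limma adjusted p = 0.125), and Zfp944 had 24, 26.6 and 33.9 FPKM in IVM and 50.6, 38.0 and 46.7 FPKM in IVO (log2FC 0.67, limma adjusted p = 0.0627). The other 8 tested genes on this chromosome overlapped between the groups.

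The remaining members were spread over 10 chromosomes. Of 9 members on chromosome 7, 5 were tested, with a median log2FC of 0.09 and Zfp940 as the member whose groups did not overlap. Chromosome 8 had 5 tested members with a median of -0.26, among them the abundant Zfp958 and the DEG Zfp963, and chromosome 13 had 3 tested members with a median of -0.15. The summed FPKM of the 40 members off chromosomes 2 and 4 was 1118, 1502 and 1454 in IVM and 1481, 1363 and 971 in IVO, with overlapping groups. Over all 67 members the sum was 1986, 2366 and 2208 FPKM in IVM and 2654, 2200 and 1982 FPKM in IVO, also overlapping. As a share of the summed FPKM of all Ensembl genes, the members held 0.124%, 0.147% and 0.155% in IVM and 0.207%, 0.171% and 0.148% in IVO. The lowest IVO share was between the IVM shares.

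Some members varied widely between samples of the same group. In 7 of the 55 tested members (12.7%), IVM replicate 1 and IVO replicate 3 were each at least 1.5 times below both other samples of their group, beside 3.39% of all tested genes. This pattern was picked after the values had been seen. The 7 genes were Zfp930, Zfp932, Zfp933, Zfp938, Zfp951, Zfp952 and Zfp998, and 6 of them lie off chromosome 4. Zfp933 varied most, with 1.82, 23.3 and 15.9 FPKM in IVM and 8.87, 5.81 and 1.49 FPKM in IVO. Zfp932 had 44.7, 100.1 and 93.9 FPKM in IVM and 68.3, 51.2 and 19.3 FPKM in IVO, and Zfp998 had 43.6, 86.9 and 81.8 FPKM in IVM and 74.8, 71.3 and 32.1 FPKM in IVO. IVM replicate 1 was at least 1.5 times above both other IVM samples in 4 members (7.27%, beside 9.14% of all tested genes), of which Zfp978, Zfp979 and Zfp987 lie on chromosome 4 and Zfp948 on chromosome 17. Zfp978 had 72.8, 35.9 and 38.6 FPKM in IVM and 85.7, 55.3 and 68.9 FPKM in IVO. With IVM replicate 1 and IVO replicate 3 both left out, limma called Zfp969 lower and Zfp979 higher, with 2 samples a group. Of all tested genes, 8.7% were then called lower and 0.292% higher. The median log2FC of the members was 0.05 as before.

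**Figure D4:**
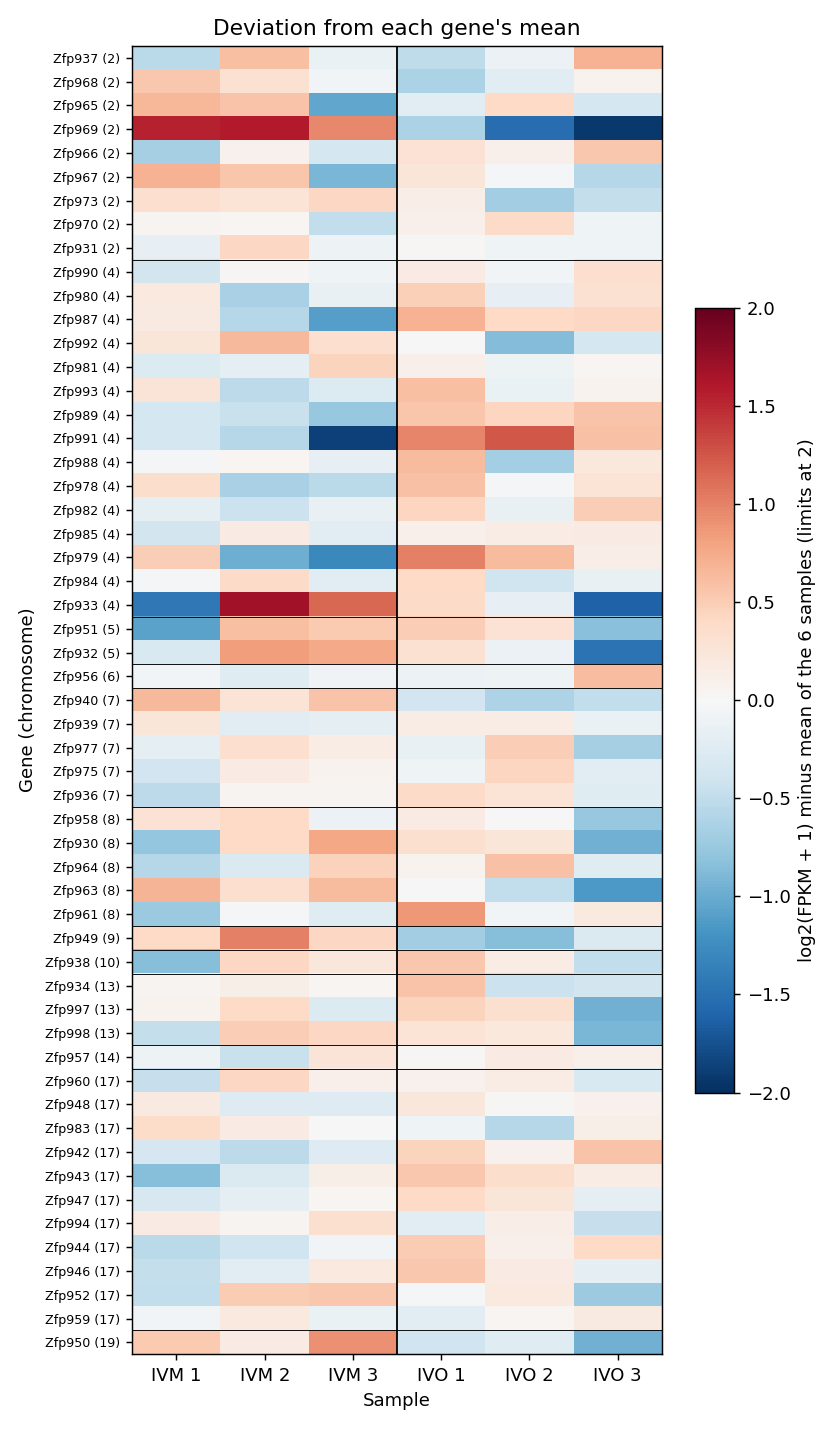
Log2(FPKM + 1) of each tested member minus its mean over the 6 samples (colour, limits at 2 and -2), with genes in rows by chromosome and position and samples in columns. Zfp969 is high in the 3 IVM columns and low in the 3 IVO columns, and Zfp933, Zfp951 and Zfp932 are low in IVM replicate 1 and IVO replicate 3.

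The partners through which KRAB zinc finger proteins silence their sites were examined as a list. Of 33 corepressor genes, 31 were tested, and limma called 3 lower in IVO and 0 higher (8 lower and 0 higher at an unadjusted p under 0.05), with a median log2FC of -0.15. Of all tested genes, 17.9% were DEGs lower in IVO, and 31.4% were lower at an unadjusted p under 0.05. Trim28, the shared corepressor, had 1288, 1170 and 1153 FPKM in IVM and 522, 652 and 896 FPKM in IVO, lower in IVO without overlap. Its log2FC of -0.84 (SE 0.21) passed the test (limma adjusted p = 0.0302) below the fold threshold, and with median-ratio scaling it was -0.51 (limma adjusted p = 0.17). Without IVO replicate 3 it was -1.04 (limma adjusted p = 0.0141), past both thresholds, while leaving out any other sample gave -0.87 to -0.65 with limma adjusted p of 0.0732 to 0.0966. Setdb1, which methylates histone H3 at the silenced sites, had 9.75, 14 and 16.7 FPKM in IVM and 16.1, 14.8 and 9.27 FPKM in IVO (log2FC -0.02, limma adjusted p = 0.978).

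The 3 DEGs of the list were Dnmt3l, Sumo3 and Rbbp4. Dnmt3l, the DNA methyltransferase cofactor needed for imprints of the oocyte, had 31.0, 13.9 and 28.4 FPKM in IVM and 4.55, 4.1 and 6.69 FPKM in IVO (log2FC -2.0, SE 0.34, limma adjusted p = 0.00786). Sumo3, a SUMO protein, had 65.4, 23.5 and 53.3 FPKM in IVM and 11.5, 11.3 and 11.1 FPKM in IVO (log2FC -1.86, SE 0.37, limma adjusted p = 0.0128, and 0.0532 without IVM replicate 3). Rbbp4, a histone-binding subunit of the NuRD complex, had 149, 147 and 155 FPKM in IVM and 51.5, 59.9 and 62.1 FPKM in IVO (log2FC -1.37, SE 0.16, limma adjusted p = 0.00249). All IVO values were below all IVM values for each of the 3 genes.

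Of 13 other named KRAB zinc finger genes, 9 were tested, and limma called 0 in either direction (also 0 at an unadjusted p under 0.05), with a median log2FC of 0.05. Zfp57 had 147, 155 and 199 FPKM in IVM and 167, 167 and 104 FPKM in IVO (log2FC -0.21, limma adjusted p = 0.574). Zfp445 had 2.14, 2.23 and 2.4 FPKM in IVM and 3.17, 1.74 and 2.35 FPKM in IVO (log2FC 0.05, limma adjusted p = 0.908). The groups overlapped for both genes. Among 172 tested Zfp genes with other numbers, 12 (6.98%) were DEGs lower in IVO and 1 (0.581%) was higher, with a median log2FC of 0.01. The median of these genes was close to that of the Zfp900 series, and no test of a difference was run. With median-ratio scaling 6 of them were lower and 8 higher, and their median was 0.25, beside 0.33 for the Zfp900 series.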

How the data were processed

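Total RNA of 6 pools of MII oocytes was sequenced, 3 IVM and 3 IVO, grouped by the sample titles. The authors amplified full-length cDNA with a SMART-Seq v4 kit, filtered paired-end reads with SeqPrep and Sickle and aligned them to GRCm39. The submitters' processing notes name HISAT2 2.1.0, RSEM 1.3.3 and DESeq2 1.24.0. The authors deposited FPKM per gene and sample, with group means that were not used here. A tool that shares reads among near copies can split their values unevenly.

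The worth of 1 fragment was read from the spacing of low FPKM values, of which 77.9% to 79.5% per library came out as whole fragments within 0.0051 FPKM. Limits from this depth cover counting error alone, because the cDNA was amplified.

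The FPKM were tested as deposited with limma 3.58.1 (lmFit, eBayes with trend) in R 4.3.3, on log2(FPKM + 1). The 18818 genes tested had an average of 1 FPKM or more. This scale understates changes of low genes. P-values were two-sided, adjusted by Benjamini-Hochberg over all tested genes, and DEGs had |log2FC| ≥ 1 and adjusted p under 0.05. A count test was not run because the values are FPKM. The fit and the depth estimate were tested on simulated data. Replicate numbers do not pair the samples (correlations of the deviations -0.062, -0.018 and -0.107).

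Shared sequence was counted as 150-base windows of a member found in transcripts of other genes, in 66 members with windows. The windows came from the transcript that GENCODE marks as canonical. Other transcripts of a member were not checked, and the listed length of a gene can differ from that transcript. Of these, 25 shared at least 10% and 26 shared none. The identifier listed as Zfp935 carries another symbol in that annotation. Promoter windows came from RefSeq tables of GRCm38.p6 and were placed in GRCm39 by exact match. KRAB annotation is the authors' Pfam column. Tables and figures were made with Python 3.11.15, pandas 2.3.3, numpy 2.4.6 and matplotlib 3.10.9.

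The members, gene lists and tests were chosen with earlier results of these data known. Values are given in full for Zfp982, the 10 members with the highest mean, the DEGs, Trim28, Setdb1, Zfp57, Zfp445 and the called genes of the corepressor list. Other genes were named after their values had been seen. Alternatives were other pseudocounts, filters and scalings, a replicate block, eBayes without trend, removal of the trend with gene length, Ensembl genes only, no fold threshold and leaving out each sample. Leaving out IVM replicate 1 and IVO replicate 3 together was chosen after seeing the data.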

Additional observations from a re-analysis of the deposited data

How the results depend on the processing

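The members' count of DEGs depended on the scaling of the libraries. As deposited, 4 were lower and 2 higher in IVO. Median-ratio and same-sum scaling each gave 1 lower and 4 higher, with a median log2FC of 0.33 and 0.34, and quantile normalization gave 1 lower and 11 higher, with a median of 0.54. Over all tested genes these scalings, in this order, called 11.2%, 11.3% and 8.61% lower and 2.06%, 2.11% and 5.55% higher. No filter gave 2 lower and 1 higher, beside 7.75% and 0.247% of all genes then tested. A filter at 5 FPKM gave 2 lower and 2 higher, beside 22.0% and 0.751%. It removed Zfp950 and Zfp963 before the test. Removal of the length trend gave 6 lower (Zfp940 and Zfp992 gained) and 1 higher with a median of -0.14, beside 16.4% and 0.978%. With the replicate block added it gave 4 lower and 1 higher with a median of -0.14, beside 13.1% and 0.765%. Leaving out IVM replicate 1 and IVO replicate 3 together left 1 lower and 1 higher, beside 8.7% and 0.292% of all tested genes. Leaving out each sample gave 1 to 5 lower, 1 to 4 higher and a median of -0.04 to 0.15. Over all tested genes these fits called 12.1% to 16.9% lower and 0.436% to 0.691% higher. The corepressor list had 7 lower with the length trend removed, 6 with no fold threshold, and 2 to 5 when each sample was left out, the highest without IVM replicate 1. The cause of these changes was not tested.

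The replicate block gave 2 lower members (Zfp949 and Zfp969) and 3 higher (Zfp979, Zfp989 and Zfp991), beside 15.4% and 0.489% of all tested genes. The replicate numbers do not pair the samples.

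No DEG changed direction under the alternatives run. Zfp969 was the member called under each of them. Genes that were not DEGs did change direction. With median-ratio scaling the log2FC went from -0.26 to 0.05 for Zfp930, -0.15 to 0.13 for Zfp934 and -0.01 to 0.29 for Zfp959. It went from -0.13 to 0.01 for Zfp965, -0.21 to 0.03 for Zfp977, -0.13 to 0.19 for Zfp997 and -0.28 to 0.04 for Zfp998. Other changes are listed only for the members with the highest means, Setdb1, Zfp57 and Zfp445. With median-ratio, same-sum and quantile scaling, in this order, the log2FC was 0.22, 0.23 and 0.43 for Zfp984, 0.29, 0.30 and 0.48 for Zfp951, 0.28, 0.29 and 0.48 for Zfp960, 0.23, 0.24 and 0.43 for Zfp931, 0.29, 0.30 and 0.48 for Setdb1, and 0.11, 0.12 and 0.27 for Zfp57. Quantile normalization gave 0.13 for Zfp958 and 0.13 for Zfp952. Zfp445 was at -0.18 with the length trend removed, with or without the replicate block, and Setdb1 at 0.01 without IVM replicate 1 and IVO replicate 3. With each sample left out, the range was -0.33 to 0.07 for Zfp984, -0.58 to 0.38 for Zfp951, -0.28 to 0.15 for Zfp960, -0.20 to 0.09 for Zfp931, -0.22 to 0.21 for Setdb1, -0.33 to 0.01 for Zfp57 and -0.10 to 0.20 for Zfp445.

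Depth limits the genes near 1 FPKM, where 3 fragments came to 0.0677 to 0.079 FPKM at 2500 bases. Read splitting between near copies is a further limit, and 7 members share at least 99% of their windows.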

Other observations

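Of the unnamed loci that the authors assembled, 26 were annotated as KRAB zinc finger genes and 24 of these were tested. By limma, 3 of the 24 (12.5%) were DEGs higher in IVO and 0 were lower, with 3 higher and 1 lower at an unadjusted p under 0.05, beside 0.606% of all tested genes called higher. Their median log2FC was -0.25, and 0.04 with median-ratio scaling, which also called 3 higher and 0 lower. Among 237 tested Ensembl genes with the same annotation outside the Zfp900 series, 8 (3.38%) were lower and 1 (0.422%) was higher, with a median log2FC of 0.01, and with median-ratio scaling 7 were lower and 10 higher. How the assembled loci relate to the Zfp900-series genes was not tested.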
